A study of Mus musculus with 9 samples.

Results

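The ephrin, semaphorin and plexin guidance genes are the mouse genes for the Eph receptors, the ephrins, the semaphorins and the plexins. They were taken by symbol (Epha, Ephb, Efna, Efnb, Sema and Plxn names) among the genes of the deposited count files, and 51 of the 47069 gene rows matched: 9 EphA and 5 EphB receptors, 5 ephrin-A and 3 ephrin-B ligands, 7 secreted class 3 semaphorins, 13 other semaphorins and 9 plexins. RNA was sequenced from frozen tumours of C57BL/6 mice aged 9 to 10 months, in 9 libraries: 3 primary prostate tumours, 3 proximal metastases in epididymal fat and 3 distal metastases. All 3 groups carry the same genotype, in which Ctnnb1pc(ex3)delta/+, a prostate-specific loss of exon 3 from a single Ctnnb1 allele that yields a beta-catenin escaping degradation, is among the engineered changes. No library analysed here came from a normal prostate. The distal site is the diaphragm in the tissue label and the lung in the growth protocol. The labels call the samples matched (n = 3) without telling which libraries share a mouse. Libraries 1 to 3 of a group are therefore only names, and the tests treat the 9 libraries as independent.

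Eph receptors are receptor tyrosine kinases that bind ephrins on neighbouring cells. Ephrin-A ligands are tethered to the membrane by a lipid anchor and ephrin-B ligands span it, so that signals run both into the receptor cell and back into the ligand cell. Contact usually makes cells repel or sort from each other, which keeps tissue borders sharp. Semaphorins are secreted or membrane-bound ligands of the plexins, which act on small GTPases and the cytoskeleton. Most class 3 semaphorins need a neuropilin co-receptor to act on plexin-A proteins. The families were first studied in axon growth, and they also act in blood vessels, epithelia and tumours.

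Libraries held 28334730 to 40408723 counts, and the 51 guidance genes together took 0.222% to 0.283% of them. Levels are given as CPM, the counts normalized to the library total with edgeR's TMM factors. At 1 CPM a gene held 25.6 to 42.0 counts in a library. Over the 48 guidance genes that passed the low-count filter, the correlation of log2(CPM + 1) between primary 1 and each metastasis was 0.959 to 0.975. It was 0.799 to 0.833 for primary 2 and 0.874 to 0.890 for primary 3, and 0.971 to 0.992 between metastases; genes are not independent replicates, and these values only describe the libraries. The median SD of log2(CPM + 1) of these genes was 0.693 in the primary, 0.239 in the proximal and 0.201 in the distal libraries. Markers of other tissues and of epithelium differed between the libraries too. The summed luminal epithelium markers stood at 3233, 18910 and 6855 CPM in primary 1, 2 and 3 and ranged over 2100 to 3122 CPM in the 6 metastases, and the basal markers at 638, 1363 and 4072 CPM against 644 to 845 CPM, with no marker of either list at 0 in any group. Seminal vesicle markers summed to 10550 CPM in primary 3 and to 3.10 to 30.5 CPM elsewhere. Skeletal muscle markers, which a diaphragm sample would hold, summed to 7.54, 748 and 1027 CPM in distal 1, 2 and 3, whereas lung epithelium markers summed to at most 5.66 CPM there and 4 of 10 were at 0 in all distal libraries.

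Each of the 7 gene groups had members that passed the filter. Per kilobase of exon, which allows levels of different genes to be compared, the mean level over the 9 libraries was highest for the plexin gene Plxnb2 (53.2 CPM per kilobase), the class 3 semaphorin gene Sema3f (51.9) and the ephrin gene Efna1 (46.1). Ephb4 led the Eph receptors with 35.6 CPM per kilobase, followed by Epha2 with 9.23. Among the other plexins, Plxna1 stood at 27.2 and Plxnb1 at 22.2 CPM per kilobase. Efnb2 and Efnb1 stood at 16.2 and 12.8 CPM per kilobase, and Sema4c and Sema4a at 15.7 and 14.5. The order of the top 3 depended on the primary tumours: Plxnb2 averaged 49.9 and Sema3f 52.4 CPM per kilobase in the proximal libraries, while Efna1 averaged 26.8 in proximal and 27.6 in distal libraries against 83.9 in primary ones.

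At the other end, Epha5, Epha6 and Epha10 did not pass the filter and stayed at or below 0.266 CPM in every library. Epha6, a receptor mostly known from the nervous system, had no count in any primary library or in proximal 3, and only 1 to 9 counts in the other metastases. Epha8, Plxnb3, Sema3e and Efnb3 passed the filter with a mean below 1 CPM. The remaining 44 genes averaged between 1.07 CPM (Efna2) and 411 CPM (Plxnb2).

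**Figure D1:**
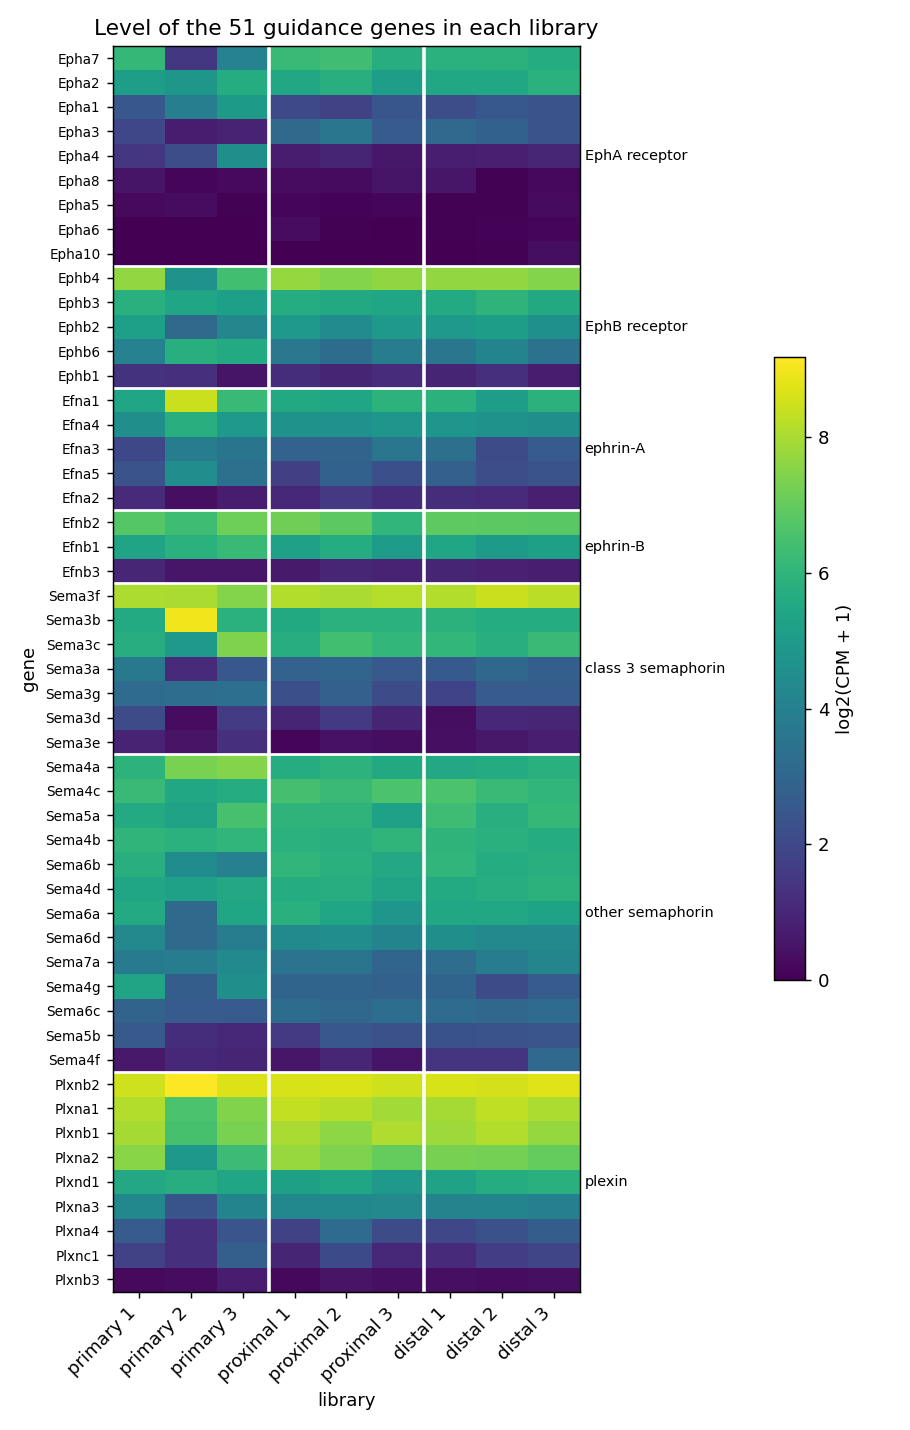
Heat map of log2(CPM + 1) for the 51 guidance genes (vertical axis, grouped by family and ordered by mean level) in the 9 libraries (horizontal axis). Plxnb2 and Sema3f are bright in every library, primary 2 stands apart in Sema3b, Efna1, Epha7 and Ephb4, and primary 1 resembles the 6 metastases.

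The first comparison set both metastatic sites, averaged, against the primary tumours, to find which guidance genes differ between primary and spread tumours. Epha4 and Ephb6, which encode Eph receptors, and Sema4a, which encodes a membrane semaphorin, were lower in the metastases. They were the only guidance genes called at an adjusted p below 0.05 over all 18204 genes tested (edgeR's quasi-likelihood test), so that 3 of 48 tested members (6.25%) were called, against 3.71% of all genes. At an unadjusted p below 0.05, 4 members (8.33%) were higher, where 6.04% of all genes were, and 11 (22.9%) were lower, where 18.6% of all genes were. Groups did not overlap for 2 higher members (4.22% of all genes) and 2 lower ones (5.99% of all genes). The median log2 fold change was 0.04 over the 48 tested members and -0.04 over all genes tested, with 22 members below 0.

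Epha4 encodes an Eph receptor that binds both ephrin-A and several ephrin-B ligands (ENSMUSG00000026235, chromosome 1, 77367185 to 77515088 on the minus strand of GRCm38). It stood at 1.72, 3.55 and 22.5 CPM in primary 1, 2 and 3, 0.652, 0.918 and 0.513 CPM in proximal 1, 2 and 3, and 0.699, 0.761 and 0.999 CPM in distal 1, 2 and 3. Every primary library lay above every metastasis, with primary 3 far above the other primary tumours. Epha4 averaged 9.25 ± 11.5 CPM in primary, 0.694 ± 0.205 CPM in proximal and 0.820 ± 0.158 CPM in distal libraries (SD, n = 3 each), and the difference passed the test (log2 fold change -3.61, SE 0.71, adjusted p = 0.0371). Without primary 3 the log2 fold change was -1.79 (SE 0.37, adjusted p = 0.103).

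Ephb6 encodes an Eph receptor whose kinase domain is inactive (ENSMUSG00000029869, chromosome 6, 41605482 to 41620509 on the plus strand). It stood at 15.7, 53.2 and 48.1 CPM in primary 1, 2 and 3, 11.7, 8.56 and 13.9 CPM in proximal 1, 2 and 3, and 11.2, 16.8 and 10.02 CPM in distal 1, 2 and 3. The metastases were exceeded by primary 2 and 3, while primary 1 lay below the highest distal library. Its means were 39 ± 20.4, 11.4 ± 2.66 and 12.7 ± 3.62 CPM (SD, n = 3 each) in primary, proximal and distal libraries (log2 fold change -1.70, SE 0.37, adjusted p = 0.049).

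Sema4a encodes a membrane semaphorin that binds plexin-B and plexin-D receptors and is known from immune cells and the retina (ENSMUSG00000028064, chromosome 3, 88435959 to 88461182 on the minus strand). It stood at 60.02, 160.0 and 176 CPM in primary 1, 2 and 3, 49.9, 60.6 and 46.6 CPM in proximal 1, 2 and 3, and 45.6, 49.2 and 56.2 CPM in distal 1, 2 and 3. More was held by primary 2 and 3 than by any metastasis, and primary 1 lay between proximal 1 and proximal 2. The means were 132 ± 62.7, 52.4 ± 7.32 and 50.3 ± 5.39 CPM (SD, n = 3 each) in the 3 groups (log2 fold change -1.36, SE 0.29, adjusted p = 0.0489). Summed macrophage markers were 548, 926 and 826 CPM in primary 1, 2 and 3 and ranged over 274 to 657 CPM in the 6 metastases. Of the 13 markers, 12 had a negative and 1 a positive log2 fold change, but their order among the primary tumours differed. Csf1r stood at 57.1, 64.1 and 76.5 CPM in primary 1, 2 and 3, Mrc1 at 42.3, 11.9 and 32.1 CPM and Cd163 at 22.0, 3.04 and 7.16 CPM. The part of macrophages in the Sema4a level was not tested. In bulk tissue, fewer cells of a type and less RNA per cell cannot be told apart. The same holds for the luminal and basal epithelium sums given above, which were also higher in primary 2 and 3 and whose part in the 3 calls was not tested.

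The 3 calls depended on which libraries entered the fit, as did the number of calls over all genes. Of the fits without 1 library, only without primary 1 did they hold (adjusted p = 0.00243 for Epha4, 0.00125 for Ephb6 and 0.000314 for Sema4a). Without any other single library the adjusted p was 0.0565 to 0.130 for Epha4, 0.101 to 0.195 for Ephb6 and 0.0897 to 0.199 for Sema4a, with every log2 fold change still negative. The share of all genes called was 3.71% with all 9 libraries, 34.8% without primary 1 and 0.116% to 1.33% without any other single library. With limma-voom in place of edgeR the adjusted p was 0.165 for each of the 3, and Ephb6 and Sema4a also missed the threshold with library totals alone (0.0573 and 0.062) and with a filter of 1 CPM in 3 libraries (0.0521 and 0.0536).

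The DNA just before the start sites of the called genes is shown with that of Epha3, which stood higher in the metastases, because they are the called genes and the gene with the highest log2 fold change of the other sign. Each line gives the 250 bases upstream of the RefSeq start site on GRCm38.p6, read along the gene's strand: chr1:77515089-77515338 (minus strand) for Epha4, chr6:41605261-41605510 (plus) for Ephb6, chr3:88461183-88461432 (minus) for Sema4a and chr16:63864176-63864425 (minus) for Epha3. Of several RefSeq starts, the one nearest the GENCODE gene start was taken. Capitals mark GC boxes (GGGCGG or CCGCCC), the sites that Sp1-type factors bind.
Epha4: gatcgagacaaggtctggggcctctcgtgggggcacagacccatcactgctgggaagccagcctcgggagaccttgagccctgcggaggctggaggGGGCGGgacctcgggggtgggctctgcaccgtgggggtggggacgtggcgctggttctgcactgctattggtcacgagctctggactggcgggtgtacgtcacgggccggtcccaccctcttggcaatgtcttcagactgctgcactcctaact
Ephb6: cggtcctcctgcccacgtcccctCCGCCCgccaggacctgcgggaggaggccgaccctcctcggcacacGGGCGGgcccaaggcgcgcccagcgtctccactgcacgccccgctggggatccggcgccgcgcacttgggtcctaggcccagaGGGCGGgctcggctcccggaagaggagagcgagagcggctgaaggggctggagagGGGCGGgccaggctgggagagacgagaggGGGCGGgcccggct
Sema4a: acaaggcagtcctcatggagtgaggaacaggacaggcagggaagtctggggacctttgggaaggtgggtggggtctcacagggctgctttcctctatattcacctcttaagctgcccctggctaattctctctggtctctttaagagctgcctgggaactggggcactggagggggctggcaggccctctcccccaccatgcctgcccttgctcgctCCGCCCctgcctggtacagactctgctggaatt
Epha3: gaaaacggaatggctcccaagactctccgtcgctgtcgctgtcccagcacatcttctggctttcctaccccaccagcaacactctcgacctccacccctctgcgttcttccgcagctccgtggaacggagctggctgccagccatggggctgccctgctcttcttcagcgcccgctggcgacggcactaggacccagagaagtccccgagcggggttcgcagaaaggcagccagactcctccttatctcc

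Ephb6 held 5 GC boxes, the nearest 14 bases before the RefSeq start, Epha4 and Sema4a held 1 each, and Epha3 held none. The RefSeq start of Ephb6 lay 29 bases downstream of its GENCODE start, so its nearest GC box lies inside the GENCODE gene. A GC box stood in 34 of the 45 guidance genes with a RefSeq window (75.6%) and in 39.4% of 20594 windows of the same length, 1 per gene. The core bound by TCF/LEF factors, the DNA-binding partners of beta-catenin (CTTTGA, or TCAAAG on the other strand), stood in none of the 4 sequences. It occurred in 2 of 45 guidance genes, Epha2 and Sema3e, and in 13.5% of all windows. The E-box bound by Snail and Zeb factors (CAGGTG or CACCTG) was in 6 of 45 guidance genes, among them Epha1, Ephb2 and Sema4f, and in 16.8% of all windows. The AP-1 site (TGAGTCA or TGACTCA) was in 1 of 45, Sema4c, and in 4.14% of all windows. Only GC boxes were found in the printed sequences, so no matches of different motifs overlap there, and a match is a description of letters, not of binding.

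**Figure D2:**
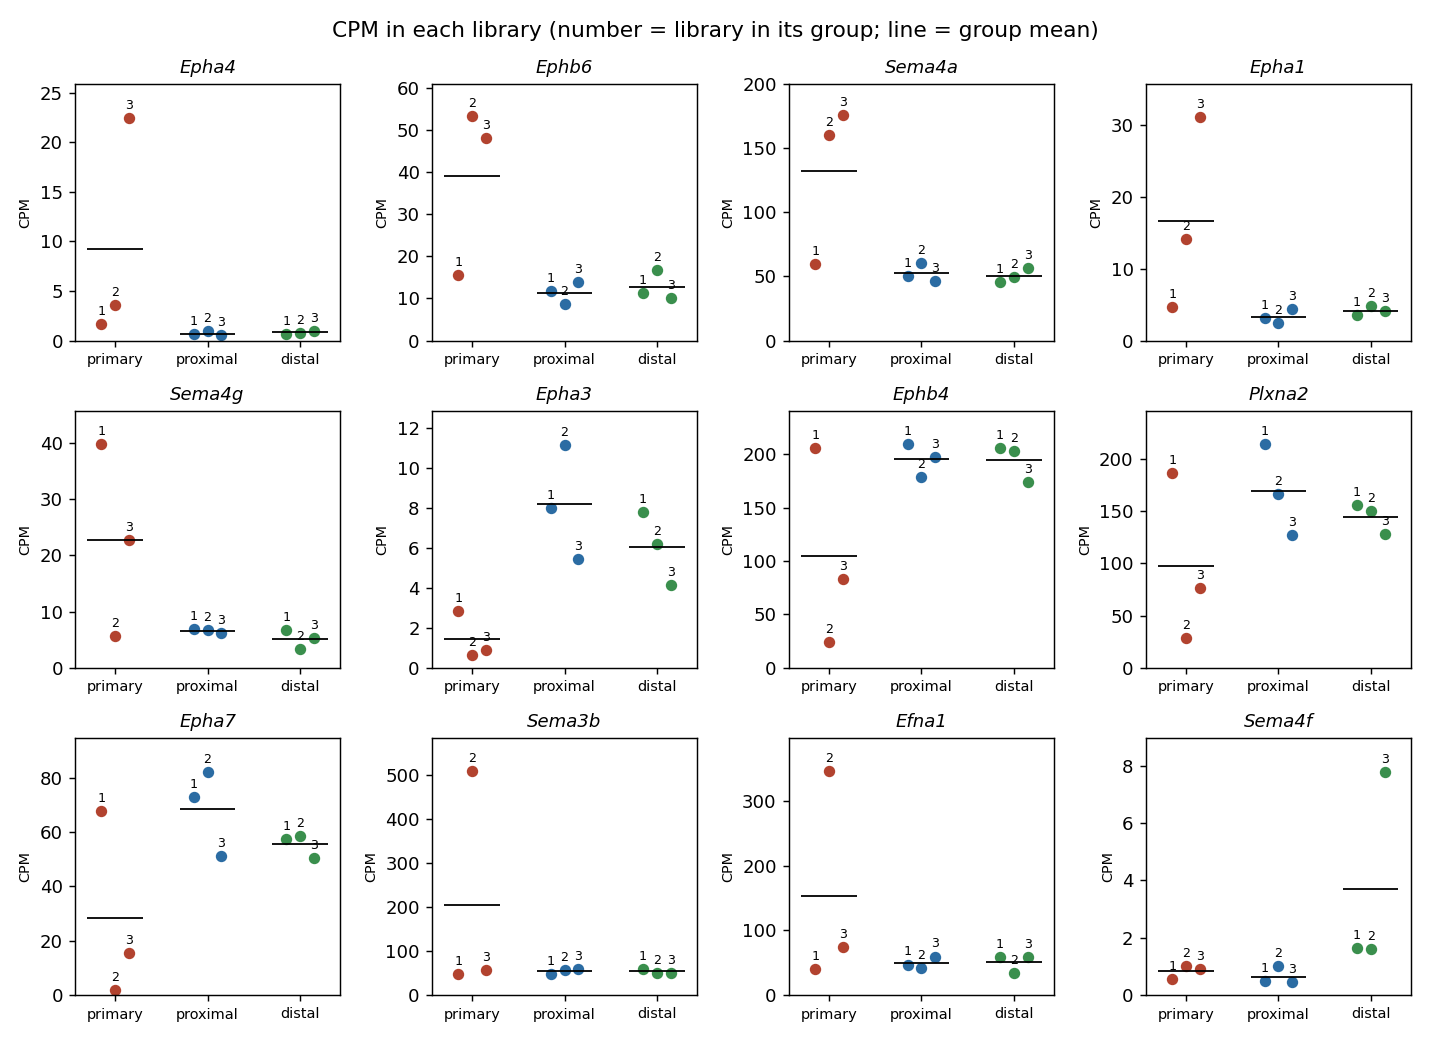
CPM (vertical axis, starting at 0) of 12 guidance genes in the primary, proximal and distal libraries, with the library number beside each point and a line at the group mean. Epha4 and Epha3 separate primary tumours from metastases, whereas for Ephb6, Sema4a, Ephb4, Plxna2 and Epha7 primary 1 lies among the metastases.

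Among the other EphA receptors, Epha3 pointed the opposite way from Epha4. Epha3, a receptor of ephrin-A ligands found in embryonic mesenchyme, stood at 2.84, 0.624 and 0.882 CPM in primary 1, 2 and 3, 7.98, 11.2 and 5.43 CPM in proximal 1, 2 and 3, and 7.82, 6.21 and 4.13 CPM in distal 1, 2 and 3. All 6 metastases exceeded all 3 primary tumours, but the difference missed the threshold (log2 fold change 2.27, SE 0.56, adjusted p = 0.0672). Without primary 1 it was 3.24 (SE 0.46, adjusted p = 0.00258). Epha1, an epithelial receptor named here after its values were seen, stood at 4.61, 14.1 and 31.1 CPM in primary 1, 2 and 3, 3.10, 2.45 and 4.43 CPM in proximal 1, 2 and 3, and 3.55, 4.76 and 4.10 CPM in distal 1, 2 and 3, highest in primary 2 and 3 and with primary 1 inside the metastatic range (log2 fold change -2.16, SE 0.49, adjusted p = 0.054). Its exons overlap those of Zyx on the other strand over 236 bases, or 6.01% of its exon length, and the strand setting of the counting is not given in the sources used here. Leaving out primary 3 gave -1.33 (SE 0.42, adjusted p = 0.214).

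Epha7 and Epha2 had the highest mean CPM of the EphA receptors. Epha7 stood at 67.8, 1.79 and 15.6 CPM in primary 1, 2 and 3, 72.8, 81.97 and 51.1 CPM in proximal 1, 2 and 3, and 57.5, 58.5 and 50.2 CPM in distal 1, 2 and 3. Primary 2 held almost none and primary 3 little, while primary 1 lay among the metastases, and the group difference did not pass (log2 fold change 1.12, SE 0.84, adjusted p = 0.386). Epha2, a receptor of epithelial and many tumour cells, stood at 34.2, 28 and 50.4 CPM in primary 1, 2 and 3, 43.5, 54.6 and 33.96 CPM in proximal 1, 2 and 3, and 44.03, 42.7 and 56.8 CPM in distal 1, 2 and 3. Its groups overlapped throughout (log2 fold change 0.29, SE 0.23, adjusted p = 0.409). Epha8 stayed at or below 0.475 CPM.

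Of the EphB receptors, Ephb4 had the highest level. Ephb4, the receptor of ephrin-B2 best known from veins, stood at 206, 24.3 and 83.4 CPM in primary 1, 2 and 3, 209.8, 179 and 198 CPM in proximal 1, 2 and 3, and 206, 204 and 174 CPM in distal 1, 2 and 3. Primary 2 and 3 lay well below all metastases and primary 1 among them, and the difference did not pass (log2 fold change 0.90, SE 0.54, adjusted p = 0.3). The summed endothelium markers were 382, 446 and 356 CPM in primary 1, 2 and 3 and ranged over 218 to 353 CPM in the 6 metastases. Single markers differed: in primary 2, Vwf was at its highest, 154 CPM, and Cdh5 at its lowest, 15.4 CPM. Over the list, 3 markers had a positive and 13 a negative log2 fold change in both sites against primary. The summed lymphatic endothelium markers had the same order as Ephb4, at 1271, 62.2 and 291 CPM in primary 1, 2 and 3 and 1109 to 1497 CPM across metastases, with no marker at 0 in a whole group. Most of that sum was Prox1, at 1197, 44.9 and 242 CPM in the primary libraries, so the sum mainly gives the order of Prox1. Flt4, of the same list, stood at 15.8, 14.6 and 13.6 CPM there. Over the list, 1 marker had a positive and 5 a negative log2 fold change in both sites against primary (median -0.70). The part of endothelial or lymphatic endothelial cells in the Ephb4 level was not tested. Ephb3, like Ephb2 a known target of beta-catenin in the gut, stood at 55.8, 40.7 and 35.03 CPM in primary 1, 2 and 3, 50.7, 45.98 and 42.1 CPM in proximal 1, 2 and 3, and 47.5, 60.8 and 46.3 CPM in distal 1, 2 and 3. Primary 2 and 3 were the lowest libraries (log2 fold change 0.15, SE 0.18, adjusted p = 0.556). Ephb2 ranged from 7.92 CPM in primary 2 to 34.8 CPM in primary 1, with a metastatic range of 20.5 to 33.5 CPM, and it had a log2 fold change of 0.45 (adjusted p = 0.466, SE 0.41). Ephb1 stayed at 0.441 to 1.56 CPM.

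Primary 2 stood well above the other libraries for the ephrin-A ligand genes Efna1, Efna4 and Efna5. Efna1, the main ligand of EphA2, stood at 40.5, 346 and 73.5 CPM in primary 1, 2 and 3, 47.05, 40.9 and 59.4 CPM in proximal 1, 2 and 3, and 58.7, 34.2 and 58.7 CPM in distal 1, 2 and 3. Primary 2 held several times the level of any other library, and the group difference did not pass (log2 fold change -1.62, SE 0.58, adjusted p = 0.152). Without primary 2 it was -0.20 (SE 0.30, adjusted p = 0.699). In the same library its receptor gene Epha2 was at its lowest, 28 CPM. Efna4 stood at 22.5, 52.3 and 30.04 CPM in primary 1, 2 and 3, 24.8, 23.8 and 27.3 CPM in proximal 1, 2 and 3, and 27.6, 25.5 and 22.7 CPM in distal 1, 2 and 3, with primary 2 highest again (log2 fold change -0.47, SE 0.25, adjusted p = 0.257), and Efna5 at 21.8 CPM in primary 2 against a metastatic range of 2.30 to 6.17 CPM, and it had a log2 fold change of -1.46 (adjusted p = 0.148, SE 0.51). Efna1, Efna3 and Efna4 lie side by side on chromosome 3 between 89271733 and 89338028. Efna3 did not share the size of the primary 2 value: it stood at 13.7 CPM there and up to 11.2 CPM in a metastasis. Efna3 and Efna4 overlap antisense transcripts over 14.1% and 10.5% of their exon lengths, so their counts carry that uncertainty. Efna2 stayed at 0.312 to 1.86 CPM, with its lowest value in primary 2.

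None of the ephrin-B ligand genes was called. Efnb2, the ligand of EphB4, stood at 108, 78.7 and 141 CPM in primary 1, 2 and 3, 146, 116 and 64.2 CPM in proximal 1, 2 and 3, and 119, 115 and 113 CPM in distal 1, 2 and 3. The lowest value was that of proximal 3, and the groups overlapped (log2 fold change 0.04, SE 0.27, adjusted p = 0.932). Per kilobase of exon, Ephb4 averaged 42.1 and Efnb2 15.9 CPM per kilobase in the proximal libraries. Efnb1 stood at 39.98, 56.3 and 72.1 CPM in primary 1, 2 and 3, 37.3, 50.6 and 32.7 CPM in proximal 1, 2 and 3, and 41.9, 31.3 and 36.1 CPM in distal 1, 2 and 3. All metastases lay below primary 2 and 3, and primary 1 was within their range (log2 fold change -0.55, SE 0.22, adjusted p = 0.177). Efnb3 stayed below 1 CPM in every library.

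Of the 7 class 3 semaphorins, 2 had a positive and 5 a negative log2 fold change. Sema3f, a secreted ligand that acts through neuropilin 2, stood at 262, 255 and 178 CPM in primary 1, 2 and 3, 277, 255 and 285 CPM in proximal 1, 2 and 3, and 277, 343 and 295 CPM in distal 1, 2 and 3. Primary 3 was the lowest library, and the difference did not pass (log2 fold change 0.32, SE 0.16, adjusted p = 0.242). Sema3b, its neighbour on chromosome 9, stood at 48, 507 and 57.2 CPM in primary 1, 2 and 3, 47.1, 57.3 and 57.6 CPM in proximal 1, 2 and 3, and 58.7, 50.5 and 50.02 CPM in distal 1, 2 and 3. Primary 2 alone was high, and the other 8 libraries lay between 47.1 and 58.7 CPM (log2 fold change -1.93, SE 0.66, adjusted p = 0.142). Without primary 2 the log2 fold change of Sema3b was 0.02 (SE 0.12, adjusted p = 0.915). Sema3c was highest in primary 3 (166 CPM) and lowest in primary 2 (29.6 CPM), on either side of the metastatic range of 51.3 to 82.3 CPM.

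Sema3g, a semaphorin of endothelial cells named after its values were seen, stood at 8.23, 8.77 and 9.19 CPM in primary 1, 2 and 3, 3.68, 6.07 and 3.25 CPM in proximal 1, 2 and 3, and 2.57, 5.40 and 5.36 CPM in distal 1, 2 and 3. Every primary tumour lay above every metastasis by a small margin, and the test did not pass (log2 fold change -0.99, SE 0.31, adjusted p = 0.115). Sema3a stood at 12.1 CPM in primary 1, 1.17 CPM in primary 2 and 4.61 CPM in primary 3, beside 4.96 to 7.59 CPM among metastases. Sema3d and Sema3e stayed at or below 3.35 and 1.39 CPM.

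Of the 13 other semaphorins, 9 had a positive and 4 a negative log2 fold change. Sema4c, a ligand of plexin-B2, stood at 72.5, 44.5 and 49.7 CPM in primary 1, 2 and 3, 87.5, 72.3 and 93.2 CPM in proximal 1, 2 and 3, and 94.8, 71.2 and 64.4 CPM in distal 1, 2 and 3. Primary 2 and 3 were below all metastases, primary 1 was among them, and the difference did not pass (log2 fold change 0.53, SE 0.20, adjusted p = 0.168). Sema4g, named after its values were seen, did not follow the order of Sema4a: it stood at 39.7, 5.58 and 22.8 CPM in primary 1, 2 and 3, 6.81, 6.78 and 6.23 CPM in proximal 1, 2 and 3, and 6.77, 3.38 and 5.29 CPM in distal 1, 2 and 3. Here primary 1 was the highest library and primary 2 lay among the metastases (log2 fold change -1.96, SE 0.49, adjusted p = 0.0693). Leaving out primary 2 gave -2.42 (SE 0.27, adjusted p = 0.0197), the only fit without primary 2 or primary 3 that called a guidance gene in this comparison.

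The class 6 semaphorins, membrane ligands of plexin-A receptors, had their lowest value in primary 2 for Sema6a, Sema6c and Sema6d and in primary 3 for Sema6b. Sema6b stood at 53.6, 20.9 and 15.02 CPM in primary 1, 2 and 3, beside a metastatic range of 44.99 to 65.1 CPM, and it had a log2 fold change of 0.90 (adjusted p = 0.2, SE 0.39). Sema6a stood at 7.99 CPM in primary 2, and the other 8 libraries spanned 26.9 to 56.2 CPM. Sema6c, at 6.60, 5.15 and 5.29 CPM in the primary and 7.14 to 8.97 CPM in the metastatic libraries, had groups that did not overlap, with a small difference that did not pass (log2 fold change 0.52, SE 0.19, adjusted p = 0.163). Sema6d stood at 18.9, 8.03 and 13.4 CPM in primary 1, 2 and 3, beside a metastatic range of 16.6 to 22.6 CPM. Sema4b, Sema4d and Sema5a had log2 fold changes of -0.12, 0.27 and 0.02, Sema7a of -0.46 and Sema5b of 0.64, none called.

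The plexins, the receptors of the semaphorins, showed no call. Plxnb2 stood at 367, 576 and 409 CPM in primary 1, 2 and 3, 394, 396 and 366 CPM in proximal 1, 2 and 3, and 389, 377 and 422 CPM in distal 1, 2 and 3. Primary 2 was highest and the other 8 libraries overlapped (log2 fold change -0.20, SE 0.16, adjusted p = 0.405). Plxna1, a receptor of class 3 and class 6 semaphorins, stood at 277, 94.9 and 173 CPM in primary 1, 2 and 3, 321, 292 and 235 CPM in proximal 1, 2 and 3, and 243, 315 and 263 CPM in distal 1, 2 and 3. Primary 2 and 3 were the lowest libraries, and the difference did not pass (log2 fold change 0.61, SE 0.31, adjusted p = 0.242). Plxna1 overlaps the antisense transcript Gm26811 over 10.7% of its exon length. Plxna2 had the same order, at 187, 28.4 and 76.4 CPM in primary 1, 2 and 3, beside a metastatic range of 127 to 215 CPM. So did Plxnb1, at 242, 88.7 and 158 CPM in primary 1, 2 and 3, with 194 to 278 CPM in metastases. Plxna3 was low in primary 2 alone, at 4.25 CPM against 14.7 to 19.1 CPM elsewhere. Plxnd1, a plexin of blood vessels, stood at 30.5 to 55.04 CPM, and Plxna4, Plxnc1 and Plxnb3 at or below 8.16, 5.93 and 0.610 CPM.

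**Figure D3:**
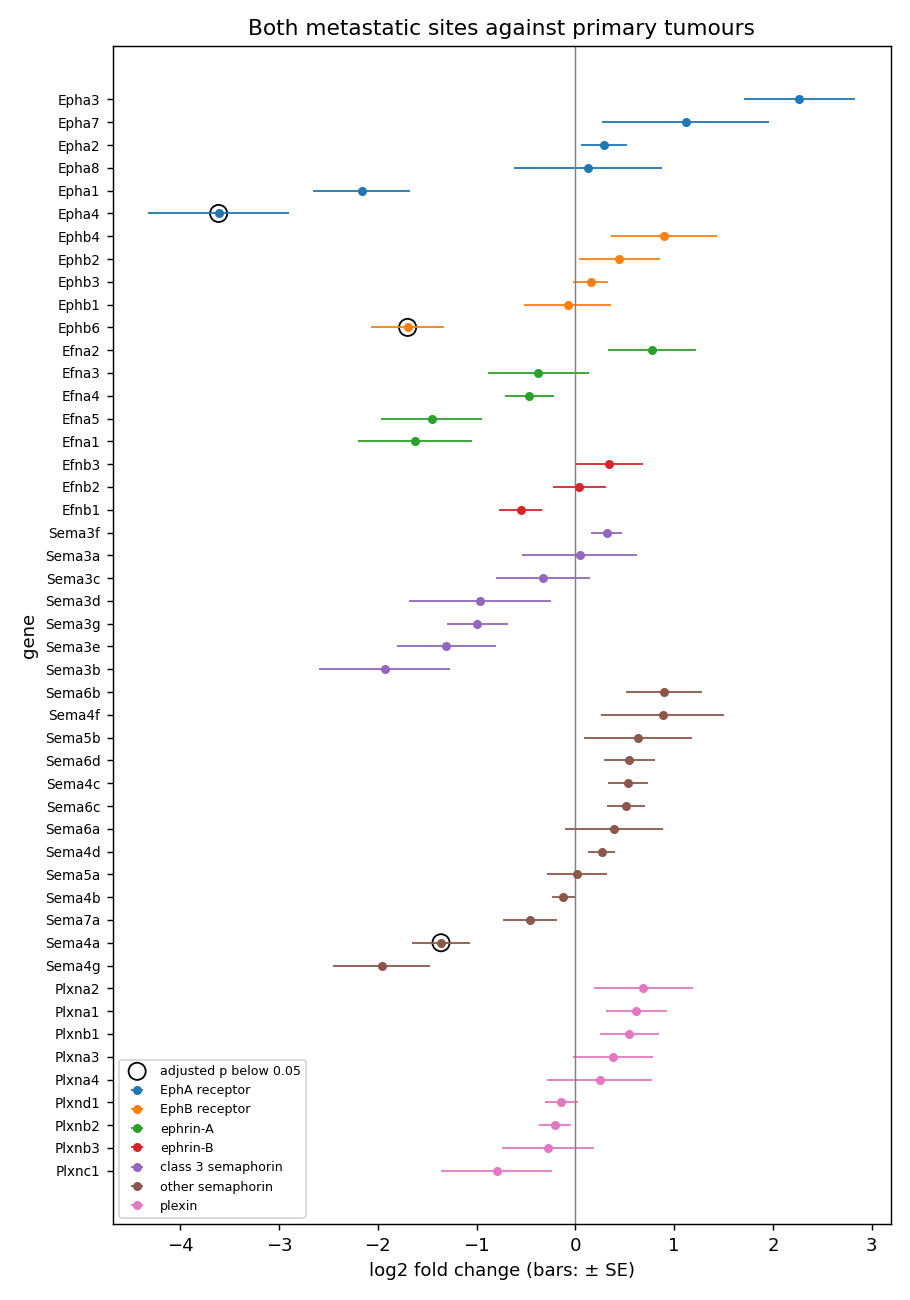
Log2 fold change (horizontal axis; bars are ± 1 SE of the edgeR fit) of both metastatic sites against primary tumours for the 48 guidance genes tested (vertical axis, by family). The circled genes Epha4, Ephb6 and Sema4a, the only ones called, lie below 0, and Epha3 has the highest value at 2.27.

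The spread among the primary tumours was wider than among the metastases of either site for the guidance genes, by the median SDs given above, and also over all genes tested (0.437 for primary, 0.125 for proximal and 0.122 for distal libraries). In primary 1, 34 of 48 tested members (70.8%) lay within the range of the 6 metastases, the same share as over all genes tested (70.8%). In primary 2 it was 12 (25%, against 20.7% of all genes), with 24 below and 12 above. In primary 3 it was 12 (25%, against 29.5%), with 18 below and 18 above. The median absolute difference from the mean of the metastases, on the log2(CPM + 1) scale, was 0.21 in primary 1, 0.92 in primary 2 and 0.60 in primary 3, against 0.11, 0.62 and 0.37 over all genes tested.

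For 12 members, primary 2 and 3 lay below all metastases while primary 1 lay among them: the receptor genes Epha7, Ephb3, Ephb4, Plxna1, Plxna2 and Plxnb1, the semaphorin genes Sema3f, Sema4c, Sema6b and Sema6d, and the ephrin genes Efna2 and Efnb3. For 6 members primary 2 and 3 lay above while primary 1 lay among the metastases: Efna1, Efna5, Efnb1, Epha1, Ephb6 and Sema4a. All 3 primary tumours lay above for Epha4 and Sema3g and below for Epha3 and Sema6c. Sema3c and Sema3d were below the metastases in primary 2 and above them in primary 3. Some margins were small: Sema3f stood at 254.6 CPM in primary 2 against a metastatic low of 255.3 CPM. Efna2 and Efnb3 held only 8 to 19 counts in primary 2 and 3. Over all genes tested, 42.7% lay below and 36.6% above the metastases in primary 2, and 36.7% and 33.9% in primary 3. How many of all genes share the joint patterns was not counted, so these are not shown to be particular to the guidance genes. The luminal, basal and squamous marker sums had the same order, with primary 1 near the metastases and primary 2 and 3 above: the squamous sum was 778, 1582 and 1891 CPM in primary 1, 2 and 3 and ranged over 754 to 911 CPM in the 6 metastases. Of the basal markers, 9 had a negative and 1 a positive log2 fold change in both sites against primary, but not all shared that order. Lamb3 stood at 177, 143 and 157 CPM in primary 1, 2 and 3, beside 229 to 355 CPM in the metastases. Ngfr stood at 20.1, 4.09 and 31.7 CPM in primary 1, 2 and 3. The macrophage sums given above and the neuron and Schwann cell sums, at 53.9, 129 and 161 CPM beside 31.2 to 56.8 CPM, were also highest in primary 2 and 3. Single macrophage markers such as Cd163 and Mrc1 did not share that order. The lymphatic endothelium sums given above, mostly Prox1, had the opposite order, with primary 1 among the metastases and primary 2 and 3 below. So did the cell division genes, which summed to 701, 382 and 352 CPM in the primary libraries and 527 to 867 CPM across metastases. The part of any of these in the guidance gene levels was not tested.

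**Figure D4:**
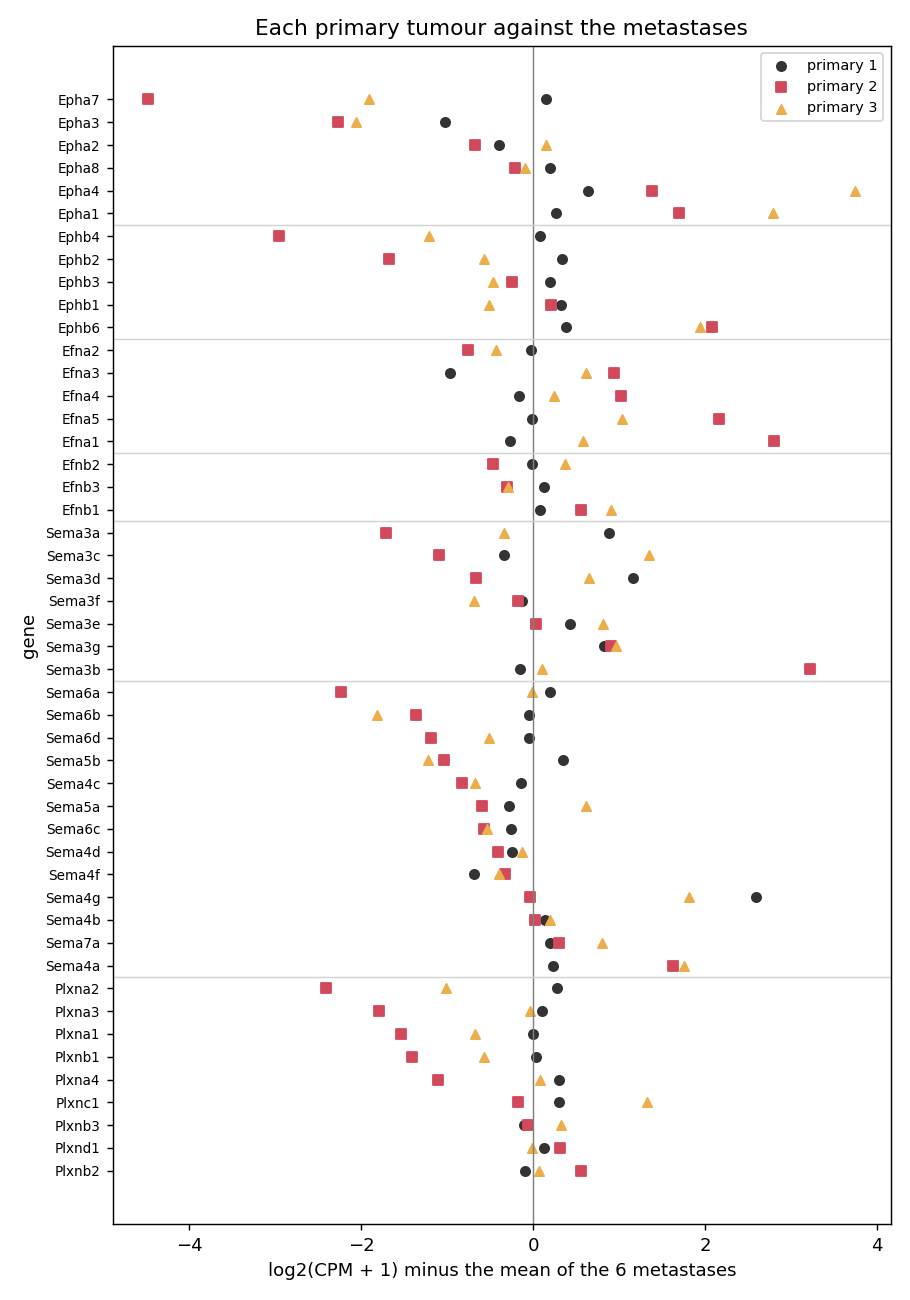
Difference of each primary tumour from the mean of the 6 metastases in log2(CPM + 1) (horizontal axis) for the 48 tested guidance genes (vertical axis, by family). Points of primary 1 lie near 0 (median absolute difference 0.21), those of primary 2 (0.92) and primary 3 (0.60) farther out and mostly on the same side.

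With primary 2 and 3 as the only primary tumours, 21 of 48 tested members were called, 12 higher and 9 lower, where 16.2% and 18.6% of all genes were called higher and lower. The higher members included Epha7 at 2.84 (SE 0.75, adjusted p = 0.025), Ephb4 at 1.87 (SE 0.44, adjusted p = 0.0168), Sema6b at 1.65 (SE 0.21, adjusted p = 0.00197) and Plxna2 at 1.60 (SE 0.40, adjusted p = 0.0207). The lower ones included Efna1 at -2.05 (SE 0.47, adjusted p = 0.0156), Epha1 at -2.59 (SE 0.32, adjusted p = 0.00173) and Sema3b at -2.37 (SE 0.58, adjusted p = 0.0191). Primary 1 was left out as 1 of 9 such fits, not because its label is in doubt, and the counts without primary 2 and without primary 3 were 1 and 0, where 1.33% and 0.469% of all genes were called.

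Proximal metastases alone were compared with the primary tumours. No guidance gene was called in edgeR's test, where 0.0494% of all genes were. At an unadjusted p below 0.05, 3 members were higher (Epha3, Sema4c and Sema6c; 3.86% of all genes) and 10 lower (14.3% of all genes). DESeq2 called 7 members (14.6%, where it called 8.19% of all genes), Epha3 and Sema6c higher and Epha1, Epha4, Ephb6, Sema4a and Sema4g lower. limma-voom called no member and 0.00549% of all genes. Epha4 had a log2 fold change of -3.73, Ephb6 of -1.78, Sema4a of -1.33 and Epha3 of 2.48. Without primary 1, edgeR called 19 members (39.6%) and 28.7% of all genes.

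Distal metastases were compared with the same primary tumours, so both comparisons share their controls. Again no guidance gene was called in edgeR's test, where 0.0879% of all genes were. At an unadjusted p below 0.05, 2 members were higher (Epha3 and Sema4f; 3.89% of all genes) and 8 lower (13.5% of all genes). DESeq2 called 7 members (14.6%, where it called 7.93% of all genes), Epha3 and Sema4f higher and Epha1, Epha4, Ephb6, Sema4a and Sema4g lower. limma-voom again called no member and 0.00549% of all genes. The log2 fold changes were -3.49 for Epha4, -1.62 for Ephb6, -1.39 for Sema4a and 2.05 for Epha3. Without primary 1, edgeR called 18 members (37.5%) and 27.4% of all genes.

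The last comparison, distal against proximal metastases, asked whether the guidance genes differ between the sites. None was called by edgeR, where 0% of all genes were called, nor by DESeq2 or limma-voom, which called 0.456% and 0% of all genes. Only Sema4f passed an unadjusted p below 0.05, as a higher member (1.79% of all genes), and no member was lower (0.269% of all genes). Groups did not overlap for 1 higher member, Sema4f (4.03% of all genes), and 1 lower member, Plxna3 (3.60% of all genes). Sema4f, a membrane semaphorin of neurons and glia, stood at 0.563, 1.01 and 0.916 CPM in primary 1, 2 and 3, 0.469, 0.994 and 0.440 CPM in proximal 1, 2 and 3, and 1.65, 1.62 and 7.79 CPM in distal 1, 2 and 3. All distal libraries exceeded all proximal ones, and distal 3 stood well above the other distal libraries (log2 fold change 2.53, SE 0.72, adjusted p = 1). Without distal 3 the log2 fold change was 1.36. The summed neuroendocrine markers were 1.87, 2.24 and 329 CPM in distal 1, 2 and 3 and at most 19.8 CPM elsewhere, with Chga at 135 CPM and Th at 30.3 CPM in distal 3. Their part in the Sema4f level was not tested. Plxna3 stood at 18.4, 18.6 and 19.1 CPM in proximal and 16.1, 16.6 and 14.7 CPM in distal libraries (log2 fold change -0.24, SE 0.46, adjusted p = 1).

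Other genes of the guidance pathways were described from lists written with earlier results of these data known. Of 50 co-receptor, adaptor and effector genes of the Eph and plexin pathways, all tested, 4 were called in both metastatic sites against primary, each lower, where 3.71% of all genes were called. Vav3, a signalling protein that Eph receptors engage, stood at 3.67, 59.1 and 110.5 CPM in primary 1, 2 and 3, beside a metastatic range of 1.86 to 4.46 CPM, and it had a log2 fold change of -4.48 (adjusted p = 0.0277, SE 0.78). Met, the receptor of hepatocyte growth factor and a partner of plexin-B1, stood at 14.9, 96.7 and 116 CPM against 9.73 to 16.7 CPM, and it had a log2 fold change of -2.63 (adjusted p = 0.0364, SE 0.51). In both genes primary 1 lay within the metastatic range and the other primary tumours far above it. Ngef, which encodes the Eph-bound exchange factor ephexin, stood at 5.20, 2.11 and 4.58 CPM against 0.861 to 1.43 CPM, and it had a log2 fold change of -1.84 (adjusted p = 0.0313, SE 0.34), and Dpysl3, a cytoskeletal protein of the semaphorin pathway, at 34.1, 71.2 and 67.04 CPM against 16.9 to 30.99 CPM, and it had a log2 fold change of -1.32 (adjusted p = 0.0447, SE 0.28). For Ngef and Dpysl3 all primary tumours exceeded all metastases. At an unadjusted p below 0.05, 3 of the 50 were higher and 9 lower, where 6.04% and 18.6% of all genes were.

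The neuropilins, co-receptors of the class 3 semaphorins, were named after their values were seen. Nrp2 stood at 173, 15.6 and 48.9 CPM in primary 1, 2 and 3, 226, 216 and 193 CPM in proximal 1, 2 and 3, and 215, 180.3 and 170.2 CPM in distal 1, 2 and 3. Primary 2 and 3 were the lowest libraries (log2 fold change 1.33, SE 0.63, adjusted p = 0.226), so that the library with the highest Sema3b level had the lowest Nrp2 level. Nrp1 stood at 50.5, 35.6 and 49 CPM in primary 1, 2 and 3, beside a metastatic range of 20.03 to 34.8 CPM, and it had a log2 fold change of -0.63 (adjusted p = 0.119, SE 0.20). Of 21 genes of the Slit, Robo, netrin and RGM families, 20 were in the files and 18 were tested. Rgmb, a co-receptor of bone morphogenetic proteins and ligand of neogenin, was called in both sites against primary, at 12.7, 18.5 and 26.6 CPM in primary 1, 2 and 3, beside a metastatic range of 7.11 to 10.2 CPM, and it had a log2 fold change of -1.15 (adjusted p = 0.0437, SE 0.24). At an unadjusted p below 0.05 none of the 18 was higher and 5 were lower, beside the same 6.04% and 18.6% of all genes. Neither list had a call in proximal against primary, distal against primary or distal against proximal.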

How the data were processed

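The authors deposited 9 files, 1 per library, with raw counts for each Ensembl gene. Per the submitters' processing notes, the authors' tools were HTSeq 0.6.0, Bowtie2 2.2.6.0, DESeq2 1.14.1, TopHat2 2.1.0, FastQC 0.11.4 and R 3.2.3, and the build was GRCm38.p3. Not given in the sources used here: annotation release, strand setting, read filters. Symbols were matched for 46488 of 47069 identifiers. Positions, exon lengths and overlaps came from GENCODE M21 (GRCm38), and upstream sequences from RefSeq (GRCm38.p6), which had 45 of the 51 members.

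CPM were computed with TMM scaling. Genes passing edgeR's filterByExpr (minimum count 10, minimum total 15) were tested: 18204, including 48 members. In R 4.3.3, all 9 libraries entered a robust quasi-likelihood fit and F-test of edgeR 4.0.16, with Benjamini-Hochberg adjustment over all genes tested and a threshold of 0.05. Each SE was derived from the fold change and its F value (size of the change over root F). The fit was checked on data made with known changes and the same dispersion in every library. That check therefore did not cover the wider spread of the primary libraries. A gene was printed library by library if it was called, among the top 2 of its family by mean CPM, or, at a mean of at least 1 CPM, had groups that did not overlap and an absolute log2 fold change of at least 1; other members named with values were chosen after these were seen. Members and lists were chosen with earlier results of these data known. Alternatives used DESeq2 1.42.0, limma 3.58.1 (voom), other scalings and filters, and fits without each library.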

Additional observations from a re-analysis of the deposited data

How the results depend on the processing

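No paired analysis was possible because the labels do not tell which libraries share a mouse. The primary libraries spread more than the metastases, and the fit has 1 dispersion per gene for all groups. Depth limits genes below about 1 CPM, and 3 of 51 members were not tested. The cause of each shift below was not tested. For counts at an unadjusted p below 0.05, the share of all genes was taken only in the main fit. Such counts below therefore do not tell a shift of the members from a shift of the whole table.

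For both metastatic sites against primary, 3 members were called, with 3.71% of all genes. The count was 1 with library totals alone (2.93% of all genes), 10 with DESeq2 (14.2%), 0 with limma-voom (0.533%; 7 members higher at an unadjusted p below 0.05) and 1 with a filter of 1 CPM in 3 libraries (3.08%). It ranged from 0 to 21 when each library was left out, and the share of all genes called from 0.116% to 34.8%, and the members higher at an unadjusted p below 0.05 from 1 to 15. For proximal against primary, DESeq2 called 7 (8.19% of all genes), limma-voom gave 5 higher and 6 lower at an unadjusted p below 0.05, and leaving out each library gave 0 to 19 called (0% to 28.7% of all genes), 1 to 13 higher and 4 to 12 lower. For distal against primary, DESeq2 called 7 (7.93% of all genes; 6 members higher at an unadjusted p below 0.05), library totals gave 5 lower, limma-voom 4 higher and 5 lower, and no filter 5 higher; leaving out each library gave 0 to 18 called (0% to 27.4% of all genes) and 1 to 15 higher. For distal against proximal, the compared groups alone gave 1 lower member, and leaving out each library gave 1 to 3 higher. Signs of log2 fold changes turned for Efnb2 without primary 2 or proximal 1 (-0.08; range over the libraries left out -0.15 to 0.27), and for Sema3b (-2.37 to 0.02) and Plxnb2 (-0.31 to 0.01) without primary 2. Epha4, Ephb6 and Sema4a stayed called with median-ratio scaling, DESeq2, no filter, and without the 10 most abundant genes.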
